A study of Mus musculus with 4 samples.

Results

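Distal intronic AP-2-dependent regions are stretches of chromatin inside introns, away from promoters, that were open in the facial ectoderm of control mouse embryos and had less ATAC-seq signal in embryos whose ectoderm lacked AP-2α and AP-2β. Of the 3103 AP-2-dependent regions of the series, 3010 lay on chromosomes 1 to 19, and 1109 of these met the rule used here: the center of the region was more than 5 kb from every protein-coding start site, and its summit fell inside the principal transcript of a protein-coding gene (GENCODE release 21 for mouse, 21829 genes) but outside its exons. Members were thus selected on the measured control-minus-EDKO signal as well as on position, so the signal values of the members are given as a description and were not tested. The other regions on these chromosomes comprised 1534 distal intergenic regions, 321 within 5 kb of a start site and 46 distal exonic regions.

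ATAC-seq, in which a transposase cuts accessible DNA, was done at embryonic day 11.5 (E11.5) on surface ectoderm dissected away from facial mesenchyme after Dispase treatment and pooled, with 2 control and 2 EDKO libraries. Controls were littermates of genotype Tfap2a flox/+; Tfap2b flox/+ without Crect, and EDKO embryos (ectoderm double knockouts) were Crect; Tfap2a flox/flox; Tfap2b flox/flox, so that every embryo carried floxed alleles. Crect is a Cre transgene active across the early ectoderm and driven by an enhancer from a Tfap2a intron. The authors combined the libraries of a group in each call, so every value is a pooled one with no replicate error, and the files give no read counts behind the calls; the intervals below are 95% intervals that cover counting error over peaks only. As a check of the tissue, a control peak lay within 1 kb of the start site of 10 of 10 ectoderm markers, 9 of 10 mesenchyme markers (all but Col3a1), 3 of 8 markers of neurons and glia and 1 of 8 markers of endothelium and blood; an open promoter is not a measure of expression, and the part of other cell types in the regions was not tested.

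AP-2 proteins are transcription factors that bind as dimers to GC-rich palindromes with a GCC arm and a GGC arm, and they are among the regulators that establish surface ectoderm and epidermis. Many enhancers lie in introns, and an intronic enhancer may act on its host gene, on a neighbor or on a distant gene, so a host is a position and not a target. Many developmental enhancers are bound by several factors, and the loss of a factor can close those sites at which the others cannot keep nucleosomes away.

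Sequences of 9 members are printed to show the bases under their summits: the 5 regions of largest signal whose sequence aligned nowhere else in the genome (in Cog5, Fry, Nsf, Adgrg1 and Arl13b), members in 2 ectoderm regulators (Tfap2a and Trp63), and the members of largest signal among adhesion genes (Pkp1) and WNT pathway genes (Wnt3a). Each is the 201 bases centered on the summit, from the plus strand of GRCm38 (mm10), and capitals mark a match to the AP-2 palindrome GCCNNNGGC or to a degenerate form of it, in which each end may be C or G and the bases beside the center may be C or T on the left and A or G on the right. The windows are chr12:31905822-31906022 (Cog5, intron 19), chr5:150458287-150458487 (Fry, intron 51), chr11:103825220-103825420 (Nsf, intron 19), chr8:94991060-94991260 (Adgrg1, intron 1), chr16:62799570-62799770 (Arl13b, intron 9), chr13:40719260-40719460 (Tfap2a, intron 5 and the edge of exon 6), chr16:25833661-25833861 (Trp63, intron 2), chr1:135900224-135900424 (Pkp1, intron 2) and chr11:59284330-59284530 (Wnt3a, intron 1).
Cog5: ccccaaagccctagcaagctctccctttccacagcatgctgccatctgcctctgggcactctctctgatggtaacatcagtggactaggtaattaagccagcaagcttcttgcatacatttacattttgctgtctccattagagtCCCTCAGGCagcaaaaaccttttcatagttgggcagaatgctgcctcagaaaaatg
Fry: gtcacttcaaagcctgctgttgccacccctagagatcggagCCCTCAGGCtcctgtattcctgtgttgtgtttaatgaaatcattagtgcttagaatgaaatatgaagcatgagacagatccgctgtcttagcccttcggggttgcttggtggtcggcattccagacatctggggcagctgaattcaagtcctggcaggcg
Nsf: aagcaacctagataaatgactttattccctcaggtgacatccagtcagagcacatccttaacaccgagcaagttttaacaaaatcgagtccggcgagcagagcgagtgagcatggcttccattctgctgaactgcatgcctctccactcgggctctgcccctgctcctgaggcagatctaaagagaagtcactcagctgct
Adgrg1: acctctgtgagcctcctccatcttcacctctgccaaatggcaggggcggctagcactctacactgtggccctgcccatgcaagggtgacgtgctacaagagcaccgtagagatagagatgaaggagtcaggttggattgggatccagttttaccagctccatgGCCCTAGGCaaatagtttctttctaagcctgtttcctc
Arl13b: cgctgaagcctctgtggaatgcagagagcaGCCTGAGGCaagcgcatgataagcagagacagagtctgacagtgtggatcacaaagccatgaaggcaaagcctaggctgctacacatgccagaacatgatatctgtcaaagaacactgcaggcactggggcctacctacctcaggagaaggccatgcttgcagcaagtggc
Tfap2a: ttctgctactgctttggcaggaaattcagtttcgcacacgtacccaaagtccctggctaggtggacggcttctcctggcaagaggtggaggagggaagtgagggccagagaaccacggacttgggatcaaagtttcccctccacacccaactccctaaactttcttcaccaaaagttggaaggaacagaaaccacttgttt
Trp63: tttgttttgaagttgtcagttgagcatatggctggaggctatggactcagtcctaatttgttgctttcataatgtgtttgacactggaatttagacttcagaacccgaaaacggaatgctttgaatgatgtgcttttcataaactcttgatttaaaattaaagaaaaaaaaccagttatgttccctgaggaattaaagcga
Pkp1: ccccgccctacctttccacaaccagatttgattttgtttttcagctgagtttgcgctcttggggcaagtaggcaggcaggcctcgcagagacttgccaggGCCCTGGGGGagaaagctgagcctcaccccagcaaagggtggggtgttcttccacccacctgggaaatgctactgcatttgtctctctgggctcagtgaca
Wnt3a: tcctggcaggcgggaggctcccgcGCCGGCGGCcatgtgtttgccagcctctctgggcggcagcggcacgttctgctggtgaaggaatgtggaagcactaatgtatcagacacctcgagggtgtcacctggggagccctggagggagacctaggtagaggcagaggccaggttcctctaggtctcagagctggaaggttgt

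The windows in Adgrg1 and Arl13b each held 1 match to GCCNNNGGC, which was also a match to the degenerate form. Those in Cog5 and Fry held 1 match each to the degenerate form only, and the Pkp1 window held 2 overlapping ones. The Wnt3a match to GCCNNNGGC was not a match to the degenerate form, whereas the Nsf, Tfap2a and Trp63 windows held neither string.

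Strong control peaks overlapped an AP-2-dependent region far more often than weak ones, both in introns and between genes. Of 63926 control peaks on chromosomes 1 to 19, 4.51% overlapped a region by at least 1 bp. The share was 5.72% (1036 of 18103, 95% Wilson interval 5.39 to 6.07%) for distal intronic control peaks and 5.93% (1502 of 25333, 5.64 to 6.23%) for distal intergenic peaks, a difference of -0.21 percentage points with a Newcombe interval of -0.65 to 0.24. For control peaks close to start sites (5 kb or less) the share was 1.55% (296 of 19127), 4.18 points below the intronic share (interval 3.80 to 4.56). Introns and intergenic sequence were thus not distinguishable by this share, and both stood above the start sites.

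When control peaks were ranked by the −log10 p at their summit and divided into 5 equal groups, the intronic share rose from 0.658% in the weakest group (29 of 4407) through 2.31%, 4.87% and 11.1% to 21% in the strongest (306 of 1457, 19 to 23.2%). The intergenic share in the strongest group was also 21% (481 of 2287, 19.4 to 22.8%), whereas that of peaks near start sites was 1.94% (173 of 8907, 1.68 to 2.25%). A region could be called only where the control signal exceeded the EDKO signal by enough to pass a threshold, so greater sensitivity at strong peaks and greater dependence of strong peaks cannot be told apart within a class. The intronic share exceeded that near start sites in each of the 5 groups, as the plot of shares by strength group shows, although the intervals overlapped in the weakest (0.459 to 0.943% against 0.056 to 0.479%).

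**Figure D1:**
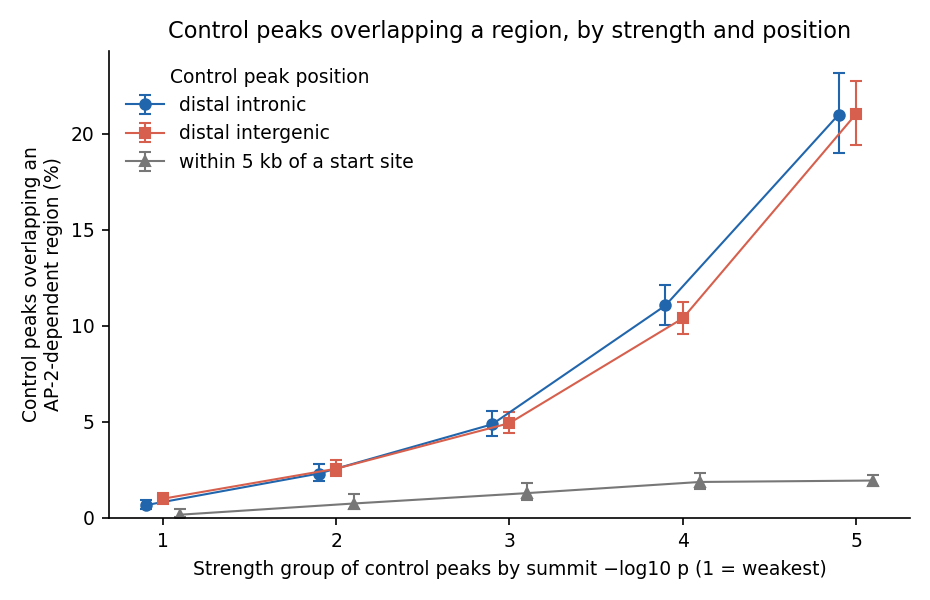
Share of control peaks that overlapped an AP-2-dependent region (vertical axis, %) in 5 equal groups of control peaks ranked by summit −log10 p (horizontal axis), for distal intronic peaks (circles), distal intergenic peaks (squares) and peaks within 5 kb of a start site (triangles); bars are 95% Wilson intervals. The distal classes rise together to 21% in the strongest group, while peaks near start sites stay at or below 1.94%.

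The regions themselves were narrow and of modest signal. Their median width was 364 bp (interquartile range 292 to 479, range 139 to 1556). The area under the curve, a score that the caller derives from −log10 p along the region, had a median of 387 (274 to 648, range 200 to 24376). Each member overlapped a single control peak, and the width of the member was a median of 62.6% of that of the peak. Those control peaks were themselves distal intronic for 1103 members, exonic for 4 and near a start site for 2. The median −log10 p at the summit was 4.33 for the regions and 6.95 for the control peaks that they overlapped. These p-values were not adjusted for the number of positions. The members nearest to the distance threshold were centered 5110 bp from the start site of Etv3, 5117 bp from that of Npc1l1 and 5174 bp from that of Igf1r, whereas the intronic regions just excluded lay 4976 bp from Rps27, 4932 bp from Suclg2 and 4929 bp from Cfap53.

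Sequence repeated in the genome accounted for 99 members, meaning that their 31-base words occurred a median of 2 or more times, and 57 of these lay inside the 4435-kb principal transcript of Gm20388 on chromosome 8. Of the 57, 56 formed a cluster between 123537360 and 123624206, each within 10 kb of the next and at 48 to 50 copies, and the other, at 6 copies, lay in intron 1 of Banp as well. Intron 1 of Gm20388 alone spans 4384 kb. Gm20388 was the host of nearest start for 58 members, and their intronic class rests on that 1 annotated transcript. The other 42 repeated members were spread over 30 host genes and included the 2 of greatest area, in Zc3h7a (24376, 3 copies) and Filip1l (18845, 4 copies). Reads from such copies cannot be assigned to 1 locus. The remaining 1010 members were of single-copy sequence by this measure. The counts by sequence and by host that follow use them unless stated, but the counts by gene list use all members.

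Even among single-copy members the greatest areas partly marked diverged repeats. Chl1, which encodes a cell adhesion molecule of the L1 family, held the region of greatest area in intron 4 (chr6:103649011-103649336, area 19917, summit −log10 p 138), and 246 of its bases aligned at 95.5% identity to another AP-2-dependent region, on chromosome 2 between 98666193 and 98667376. The next was in intron 2 of Cdk8, a Mediator kinase (11362, summit −log10 p 46.0), which had 7 other alignments of at least 100 bases and 80% identity in the genome. Malrd1 (3111), Camk1d (2334) and Kcnj3 (2251) also had such alignments, numbering 15793, 22 and 245, and the Chl1 region had 97. Thus 5 of the 10 single-copy members of greatest area had related sequence elsewhere, while those in Cog5 (3536), Fry (2802), Nsf (2623), Adgrg1 (2611) and Arl13b (2218) had none.

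The 5 regions with no related sequence lay in introns of genes of unlike function. Cog5 encodes a subunit of a Golgi tethering complex, and the start site nearest to its region was that of Hbp1 at 44.4 kb. Fry encodes a large scaffold protein, and its region lay in intron 51, 59.8 kb from the start site of Zar1l. Nsf encodes the ATPase that recycles the vesicle fusion machinery, and the start site nearest to its region was that of Wnt3, a WNT ligand, at 51.2 kb. The region of Adgrg1, an adhesion G-protein-coupled receptor, lay in intron 1, 14.2 kb from its own start site, and that of Arl13b, a ciliary GTPase, lay 12.9 kb from the start site of Nsun3. The summit −log10 p of these 5 regions ranged from 10.4 in Fry to 14.7 in Adgrg1, well above the median of 4.33.

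The AP-2 palindrome was more frequent under the summits of the members than in intronic peaks without a region. GCCNNNGGC, searched on both strands and wholly within 100 bp of the summit, was present in 223 of 1010 single-copy members (22.1%, 19.6 to 24.7%) and in 1820 of 16162 single-copy distal intronic control peaks that overlapped no region (11.3%, 10.8 to 11.8%), a difference of 10.8 points (Newcombe interval 8.32 to 13.5). The degenerate form was present in 53.6% of members (50.5 to 56.6%) and in 19.5% of the comparison peaks (18.9 to 20.1%), a difference of 34.0 points (30.9 to 37.2). In distal intergenic AP-2-dependent regions the shares were 23.9% and 54.3%, and the intervals of their differences from the members spanned zero (-5.21 to 1.60 points and -4.74 to 3.34 points). Either string was present in 579 members (57.3%), so 42.7% of windows held neither, and a window without these letters may still be bound.

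The excess was seen at a spacing of 3 or 4 bases between the arms. With 3 bases the shares were 22.1% in members and 11.3% in comparison peaks, and with 4 bases they were 19% (16.7 to 21.5%) and 10.2% (9.71 to 10.6%). With 5 bases the shares were 9.90% and 8.20%, and with 0, 1, 7 or 8 bases the string was less frequent in members, at 1.39%, 5.54%, 5.45% and 4.55% against 3.17%, 9.84%, 11.8% and 7.31%. The counts for different spacings are not independent, since a GC-rich window can hold several of them.

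**Figure D2:**
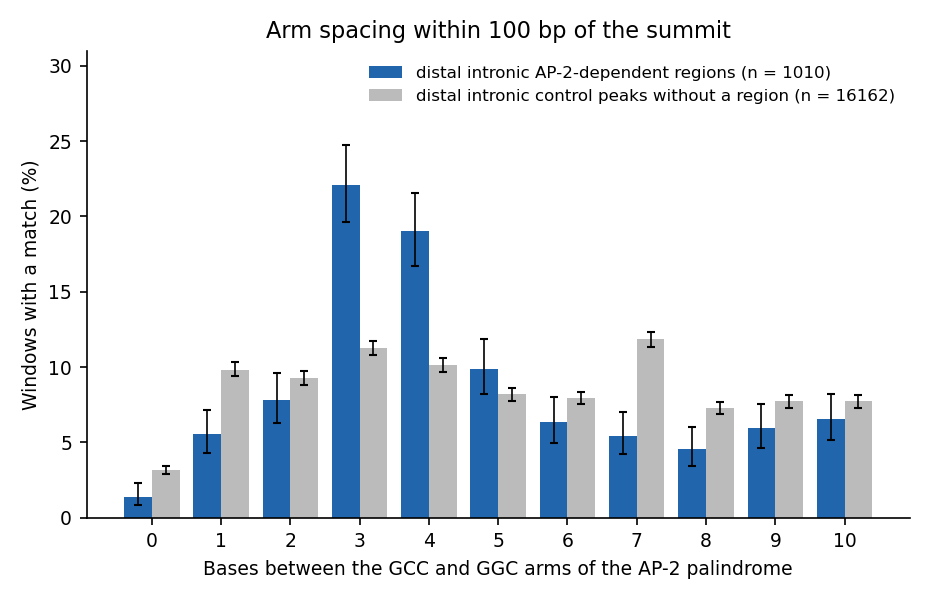
Share of 201-bp windows around the summit (vertical axis, %) that held a GCC arm and a GGC arm separated by 0 to 10 bases (horizontal axis), in 1010 single-copy distal intronic AP-2-dependent regions and in 16162 single-copy distal intronic control peaks without a region; bars carry 95% Wilson intervals. Members exceed the comparison peaks most at 3 bases (22.1% against 11.3%) and at 4 bases (19% against 10.2%).

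The middle bases also differed. Of the 32 middle triplets, counted with their reverse complements, TCA (GCCTCAGGC, or GCCTGAGGC on the other strand) was present in 59 members and CCA (GCCCCAGGC, or GCCTGGGGC) in 46. Their shares were 5.84% and 4.55% of members, against 1.55% and 1.72% of comparison peaks. TAA (GCCTAAGGC) was present in 1.58% against 0.334%. AGA (GCCAGAGGC, 1.09% against 0.978%) and ACA (GCCACAGGC, 0.693% against 0.699%) were about as frequent in both sets. In the degenerate form, the core CCTNAGG was present in 34.4% of members and 14.1% of comparison peaks, a ratio of 2.44, whereas CCCNGGG was present in 18.7% and 11.5%, a ratio of 1.62.

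Matches to the degenerate form stood at set distances from the summit. Per 100 members, 9.31 matches were centered 0 to 19 bp from the summit on the right and 7.23 lay 1 to 20 bp on the left, whereas 13.8 lay 60 to 79 bp to the right and 13.1 lay 61 to 80 bp to the left. Between these positions the number fell to 3.66 in the bin from 20 to 39 bp and 4.16 in the bin from 21 to 40 bp on the left, and beyond 100 bp it did not exceed 2.67 in any 20-bp bin. In comparison peaks no bin exceeded 3.09. The 3-peaked distribution appears in the plot of string positions. The caller extends each transposase cut to an interval before summits are placed, and how that step affects these distances was not tested.

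**Figure D3:**
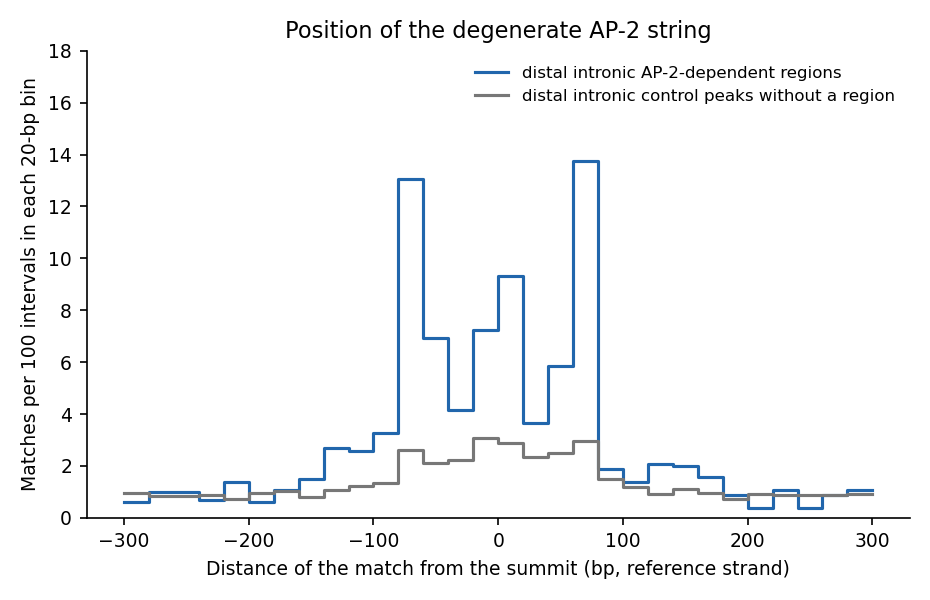
Number of degenerate AP-2 strings per 100 intervals in 20-bp bins (vertical axis) by distance from the summit on the reference strand (horizontal axis, bp), for single-copy members (blue) and single-copy distal intronic control peaks without a region (gray). Members show a central peak of up to 9.31 and flanking peaks of 13.1 and 13.8 between 60 and 80 bp from the summit, and comparison peaks stay at or below 3.09.

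Members carried 1 match to the degenerate form in 404 cases, 2 in 125 and 3 or more in 12. Read in the other direction, the share of single-copy distal intronic control peaks that overlapped a region was 3.48% with no match (469 of 13476), 13.3% with 1 (405 of 3034) and 19.9% with 2 or more (131 of 657, 17.1 to 23.2%). The same order was present within the strongest group of control peaks, at 13.3% (11.4 to 15.5%), 41.2% (35.3 to 47.3%) and 49.3% (37.7 to 60.9%), where the intervals for 1 and for 2 or more matches overlapped. Peaks with 1 match exceeded those with none in each of the 5 groups, although the intervals overlapped in the weakest, whereas peaks with 2 or more exceeded those with 1 in all but group 2 (5.19% against 6.28%) and with separate intervals only in group 3 (22.8%, 16.9 to 29.9%, against 11.9%, 9.74 to 14.6%). Among members, the share with a match did not follow the area under the curve: it was 50.6% in the lowest of 4 equal groups by area and 51.4% in the highest.

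Strings of other factors mostly differed less. Of the 13 strings searched, that of CTCF, an insulator protein, was present in 0.198% of members (2 of 1010) and in 8.14% of comparison peaks, a difference of -7.94 points (-8.39 to -7.27). GGGCGG, bound by SP factors, was present in 4.26% against 10.7%. TAATTA, the core bound by many homeodomain proteins, was present in 8.81% against 5.41% (difference 3.40 points, 1.76 to 5.34), AGATAA, bound by GATA factors, in 10.5% against 7.96% (0.74 to 4.61 points), and the p53 family string in 13.6% against 11.5% (0.03 to 4.36 points). GGAATG, bound by TEAD factors, was present in 20.1% against 22.3%, with an interval of the difference of -4.61 to 0.49 points. The members were less GC-rich than the comparison peaks, with medians of 48.0% and 50.7% of the window. When comparison peaks were weighted to the GC content of the members, GCCNNNGGC was present in 9.85% of them and the degenerate form in 17.4%. Weighted shares are given for the AP-2 strings only. For the other strings, the part of base composition and of peak strength in the differences was not tested.

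The position of members within their hosts was much like that of other intronic peaks. Intron 1 held 25.3% of single-copy members (256 of 1010, 22.8 to 28.1%) and 26.9% of comparison peaks, a difference of -1.54 points (-4.22 to 1.31). Over all 1109 members the share was 29.6% (27 to 32.3%), since the cluster of repeated members lies in intron 1 of Gm20388. The part of the host nearer to its start than to its end held 48.7% of single-copy members and 48.5% of comparison peaks. Members were somewhat more often over 100 kb from every start site (27.5% against 22.1%, a difference of 5.41 points with an interval of 2.67 to 8.32) and somewhat less often within 200 bp of an exon (5.64% against 7.75%, -3.44 to -0.46 points). The start site nearest to the member was that of the host for 73.1% of single-copy members and for 70.7% of comparison peaks, with an interval of the difference of -0.56 to 5.09 points. The control peaks that members overlapped were stronger than the comparison peaks (median summit −log10 p 6.68 against 4.61). The part of strength in these differences of position was not tested.

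Single-copy members were found in introns of 810 genes; 658 of these hosted 1 member, 105 hosted 2, 30 hosted 3 and 17 hosted 4 or more. Over all members, 834 of the 5670 genes with a distal intronic control peak hosted one, or 14.7%. That share depended on how many such peaks a gene had: it was 4.78% of genes with 1 peak (120 of 2508), 12.4% with 2 or 3, 24.9% with 4 to 7 and 48.8% with 8 or more (270 of 553). Of 207 pairs of neighboring single-copy members in the same host, 85 shared an intron, 47 lay within 10 kb and 22 within 2 kb of each other.

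The hosts of 4 or more single-copy members were picked by that number, so their shares of overlapping peaks are high by choice beside the 5.72% of all distal intronic control peaks. Pde4d, which encodes a cAMP phosphodiesterase, hosted 6 single-copy members, more than any other gene. They lay between 164 and 697 kb from its start, their areas ranged from 211 to 833, and they overlapped 5 of its 30 distal intronic control peaks. Meis2, which encodes a TALE homeodomain factor, hosted 5 in introns 7 to 9, with areas from 215 to 495, overlapping 5 of 22 control peaks; 3 of these 5 held the degenerate AP-2 string. Slc9a9, which encodes an endosomal sodium-proton exchanger, hosted 5 that overlapped 5 of 11 control peaks.

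Fam196b hosted 4 members in intron 1, between 8.74 and 27.2 kb from its start, and they overlapped 4 of its 5 distal intronic control peaks. Their areas were 1382, 258, 1044 and 1495, so 3 of the 4 exceeded the upper quartile of 648. Fam196b lies inside Dock2 on the opposite strand, so the same 4 regions counted for both genes. Sema3d, which encodes a secreted semaphorin that guides cells and axons, hosted 4 that overlapped 4 of 12 control peaks; 3 of them lay in intron 8 between 142 and 152 kb from the start. The other hosts with 4 or more were Fry, Gpc6, Kcnq5, Lrmda, Macrod2, Nckap5 and Sdk1, the overlapping pair Cmss1 and Filip1l, Arhgap26 and Gm20388. The 5 single-copy members of Gm20388 lay nearest to the start sites of other genes, as did all those of Arhgap26, Dock2 and Macrod2. In Kcnq5 and Cmss1 only 1 member each lay nearest to the start site of its host.

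**Figure D4:**
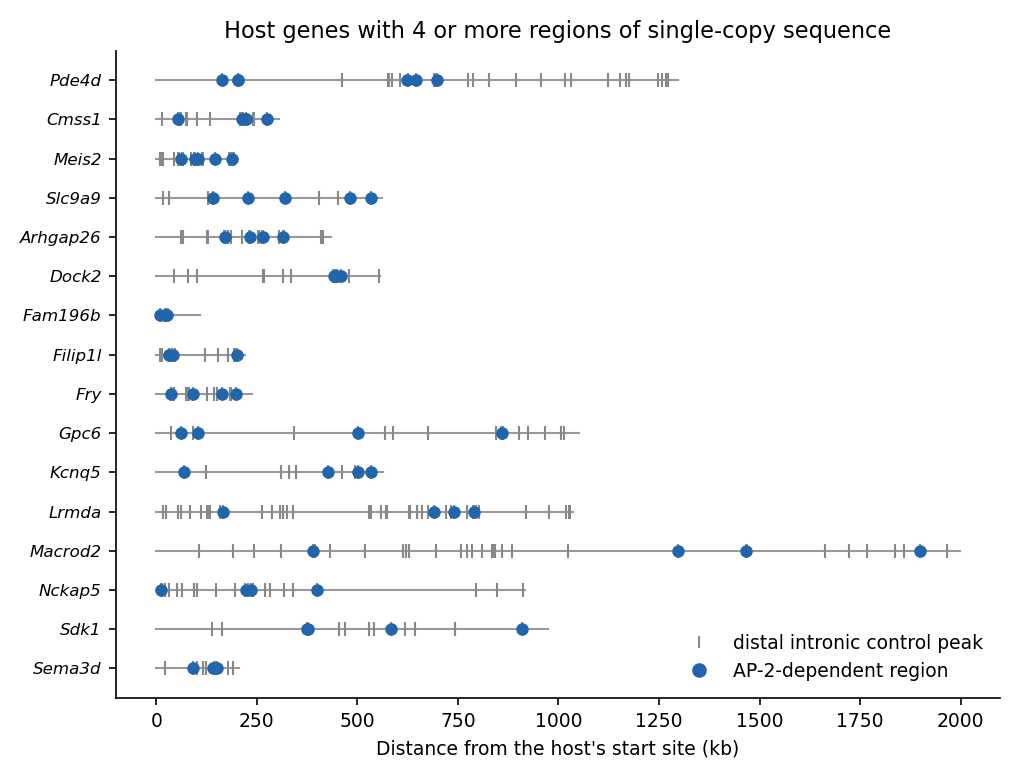
Distal intronic control peaks (gray ticks) and single-copy AP-2-dependent regions (blue points) along the 16 host genes with 4 or more of the latter, Gm20388 left out; the horizontal axis is the distance from the start site of the host (kb), and gray lines span the principal transcript. Members of Fam196b cluster within 27.2 kb of its start, whereas those of Macrod2 are spread from 390 to 1900 kb.

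Genes that regulate the surface ectoderm hosted 10 members in 8 of the 28 list genes with a distal intronic control peak (28.6%, 15.3 to 47.1%, against 14.7% of all genes), among them Tfap2a, Tfap2b, Trp63, Grhl3, Esrp1 and Tead1. Trp63, which encodes the p63 factor that directs epithelial stratification, hosted 2, in introns 2 and 1 (732 and 540). Tead1, which encodes an effector of Hippo signaling, also hosted 2, both in intron 2 (458 and 292), and Grhl3, an epidermal barrier factor, hosted 1 in intron 15 (416). Of control peaks in list genes, 9 of 143 overlapped a region (6.29%, 3.35 to 11.5%), an interval that includes the 5.72% of all distal intronic control peaks. Both counts include the targeted genes Tfap2a and Tfap2b, where lost DNA may account for the regions. The lower end of the interval for genes, 15.3%, is close to 14.7%, and the share without these genes was not computed.

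The regions in the targeted genes themselves stand in a special position. The Tfap2a member (chr13:40719309-40720099, area 1025) shared 25 bases with exon 6 and otherwise lay between exons 5 and 6, which are the floxed exons, and its DNA is deleted wherever Cre acted. Lost DNA and lost accessibility cannot be told apart there. Of 6 control peaks in the gene, only that one overlapped a region. The Tfap2b member (chr1:19233786-19234205, area 306) shared 156 bases with exon 7 and began 2631 bp beyond the floxed exon 6; the position of the loxP site relative to it is not given in the sources used here, so the same limit may hold.

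Genes of epithelial adhesion, junctions and polarity hosted 10 members, 9 of single-copy sequence, in 9 of 24 list genes with a peak (37.5%, 21.2 to 57.3%, against 14.7% of all genes). Pkp1, which encodes the desmosomal protein plakophilin 1, held the strongest in intron 2 (area 1055, summit −log10 p 7.76). Those of Cdh3 and Cdh1, the adjacent genes of P-cadherin and E-cadherin, each lay in intron 2 and had areas of 841 and 503. Ctnnd1, which encodes p120-catenin, and Nectin1, an adhesion receptor, each had 1 in intron 1 (464 and 416). At the level of peaks, 10 of 123 overlapped a region (8.13%, 4.48 to 14.3%), an interval that includes the 5.72% of all such peaks. Basement membrane genes and their receptors hosted 7 members in 5 of 22 genes (22.7%, 10.1 to 43.4%, against 14.7% of all genes). Their areas included 1012 in Itga3, an integrin subunit, 806 and 371 in Frem2, and 797 and 250 in Fras1. Frem2 and Fras1 encode extracellular matrix proteins that anchor the epidermis. Of 110 peaks, 7 overlapped a region (6.36%, 3.12 to 12.6%), which is near the 5.72% of all such peaks.

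In the WNT pathway, 14 members lay in 11 of 51 list genes with a peak (21.6%, 12.5 to 34.6%, against 14.7% of all genes). Of 238 peaks, 14 overlapped a region (5.88%, 3.54 to 9.63%). Among ligands, Wnt3a had a region in intron 1 (area 993), Wnt6 in intron 1 (603) and Wnt5b in intron 1 (408). Among receptors, Lgr5 and Lgr6, which bind R-spondins, had areas of 963 and 865, and Ror2 had 292. Downstream, Tcf7l1 hosted 2 (924 and 312) and Lef1 hosted 2 (397 and 386), both encoding DNA-binding partners of β-catenin, and Znrf3, which encodes a ligase that removes WNT receptors, hosted 2 (502 and 382). Ligands, receptors, nuclear factors and an inhibitor thus all held members, at a share of peaks close to that of all genes.

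Some WNT genes were the nearest start sites to members in introns of other genes. Of 13 WNT list genes that were nearest to a distal intronic control peak in another gene, 7 were nearest to a member, against 248 of 2135 over all genes: Wnt3, Axin2, Fzd1, Rnf43, Prickle1, Ctnnb1 and Kremen1. These peaks numbered 78, of which 9 overlapped a region (11.5%, 6.19 to 20.5%), against 286 of 5249 (5.45%) over all genes; several share a locus and so are not independent, and these genes were described after their values were seen. By the same measure the share was 1 of 9 peaks for the ectoderm list (1.99 to 43.5%) and 2 of 20 for basement membrane genes (2.79 to 30.1%). It was 1 of 36 for the BMP and TGF-beta list and 0 for the other lists with such peaks. These counts are small, and whether the WNT share is particular to that pathway was not tested. The 2 regions of Nsf had areas of 2623 and 259. Those in Cep112 lay 200 and 151 kb from the start site of Axin2, a feedback inhibitor of the pathway, with areas of 957 and 281. The region in intron 5 of Hsf5 (604) lay 5.85 kb from the start site of Rnf43, another ligase that removes WNT receptors, and that in intron 35 of Ulk4 (368) lay 64.5 kb from that of Ctnnb1, which encodes β-catenin.

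Hedgehog and Notch genes hosted 15 members in 11 of 21 genes (52.4%, 32.4 to 71.7%, against 14.7% of all genes), the greatest share of the 10 lists. Among the hosts were Smo, Gli2, Gli3, Hhip, Boc, Disp1, Sufu, Notch2, Maml2 and Maml3. Per peak the share was 8.38% (14 of 167, 5.06 to 13.6%), an interval that includes 5.72%. Hhip, which encodes a membrane protein that sequesters Hedgehog ligands, had the strongest single-copy member (1099, intron 4), followed by Boc, a Hedgehog co-receptor (897, intron 1). Maml2 and Maml3, which encode coactivators of Notch, hosted 3 each, with areas from 266 to 768 and from 311 to 550. Sufu, an inhibitor of GLI factors, had 1 of 516. The Smo region was of repeated sequence (18 copies). With repeated sequence left out, the share of Hedgehog and Notch genes was 47.6% (28.3 to 67.6%), against 15.0% of all genes.

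The BMP and TGF-beta list had members in 3 of 19 genes (15.8%, against 14.7% of all genes), namely Ltbp1 (337), Tgfbr2 (221) and Bmp5 (213). The list of FGF, EGF and PDGF signaling had them in 2 of 15 (13.3%), namely Pdgfc (404) and Igf1r (345 and 305). Beside the same 14.7%, lists for other cell types gave 2 of 14 genes for mesenchyme and neural crest (14.3%, Zeb2 and Alx4). They gave 5 of 14 for neurons and glia (35.7%, 16.3 to 61.2%) and 0 of 7 for endothelium and blood. The neuronal hosts included Nrxn3, Nlgn1, Cntnap2 and Rbfox1. Genes of that list had a median of 8 distal intronic control peaks, against 2 over all genes, and 8 of 130 of the peaks overlapped a region (6.15%). For endothelium and blood, 0 of 17 peaks overlapped a region, which allows a share of up to 17.6%. The median number of peaks per gene was 3 in the ectoderm, adhesion, WNT and Hedgehog and Notch lists. A median hides genes with many peaks: the Hedgehog and Notch list had 167 peaks in 21 genes, against 18103 in 5670 over all genes. The part of peak number in the shares of genes was not tested. When an area of at least 500 was required in both sets of intervals, 7.77% of all genes hosted a member. The share was then 33.3% for Hedgehog and Notch genes (16.3 to 56.3%), 20% for adhesion and 16.7% for WNT. It was 15% for basement membrane, 14.3% for neurons and glia and 11.5% for the ectoderm list. It was 0 for the BMP and TGF-beta, the FGF, EGF and PDGF, the mesenchyme, and the endothelium and blood lists.

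**Figure D5:**
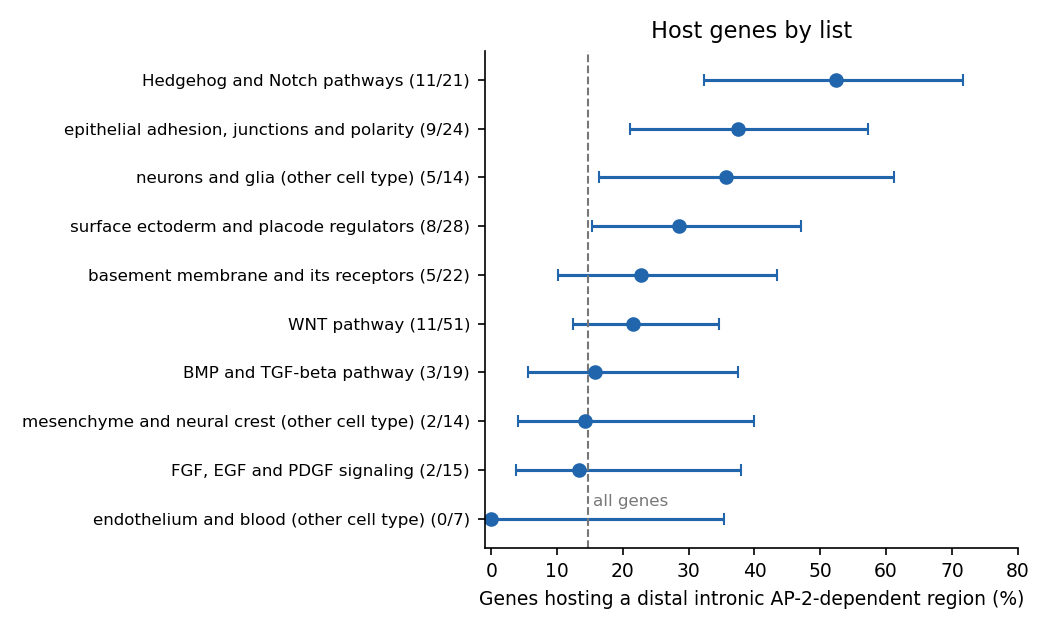
Share of genes with a distal intronic control peak that hosted an AP-2-dependent region (horizontal axis, %), by gene list (vertical axis, with hosts and genes counted); points are shares, bars are 95% Wilson intervals, and the dashed line marks the 14.7% of all genes. Hedgehog and Notch genes stand highest at 52.4%, and endothelium and blood genes stand at 0 of 7.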

How the data were processed

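ATAC-seq libraries of 2 control and 2 EDKO samples were trimmed with NGmerge, mapped to mm10 with Bowtie2 keeping up to 10 alignments per read, and called with Genrich by the authors. Control libraries were called together; AP-2-dependent regions were called with controls as input and EDKO libraries as background. The deposited files give, per interval, a display score, the area under the curve (a further score), the −log10 p and the offset of the summit, all pooled; no region had an area below 200. The methods state a sequencing depth per sample, but no file gives reads per interval, and how many support each call is not known.

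Genes were taken from GENCODE release 21 (1 principal transcript each), and copies of 31-base words and alignments from the reference genome, in which all peaks fit. The computations used Python 3.11.15, pandas 2.3.3, statsmodels 0.14.6 and BLAST 2.17.0, and were tested on simulated data. Shares carry 95% Wilson intervals and differences Newcombe intervals; no p-value was computed. A count of 0 was taken to allow 3. Members, gene lists and strings were chosen with earlier results of these data known. Named were the 10 single-copy members of greatest area, hosts of 4 or more members, and at most 5 hosts with values per list, except that WNT hosts beyond 5, and genes nearest to members in other hosts, were added after their values were seen. Some hosts are not reported here.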

Additional observations from a re-analysis of the deposited data

How the results depend on the processing

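No paired analysis was possible because the libraries of each group were combined in the calls, and for the same reason no library could be left out. The number of members was 1182 with a distance of 2 kb, 1019 with 10 kb and 397 when an area of at least 500 was required in both lists. With that area, the share of distal intronic control peaks that overlapped a region was 3.49%, the share of members in intron 1 was 33.8%, the share of genes that hosted a member was 7.77%, and GCCNNNGGC was present in 12.3% of comparison peaks. The share of genes was 13.7% with 2 kb and 16.0% with 10 kb. Leaving out repeated sequence put 25.3% of members in intron 1. An overlap of at least 50% of both intervals gave 3.72% of peaks, and strength groups 1 to 5 gave 0.658%, 2.31%, 4.87%, 11.1% and 21%. The string was present in 9.70% of members and 6.0% of comparison peaks within 50 bp of the summit, in 27.9% and 15.5% over the whole region, in 53.6% and 19.5% in its degenerate form, and in 9.85% of comparison peaks weighted to the GC content of the members. Over the whole region the lengths searched differed, with median widths of 355 bp in single-copy members and 457 bp in comparison peaks. The cause of these shifts was not tested. Of the 70 alternatives for single gene lists, 6 moved beyond the interval, all at an area of at least 500: the share of genes was then 11.5% for ectoderm regulators, 20% for adhesion, 14.3% for neurons and glia, and 0 for the BMP and TGF-beta, FGF, EGF and PDGF, and mesenchyme lists.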

Other observations

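Members were spread over all autosomes: between 4.25% (chromosome 7) and 7.44% (chromosome 3) of the distal intronic control peaks of a chromosome overlapped a region. Of 6-base words present in at least 5% of single-copy members, those with the greatest ratio to comparison peaks were AT-rich, led by ATATTA (6.63% against 3.46%) and AATTAA (14.8% against 8.0%), and the word of lowest ratio was GCCACC (7.13% against 15.8%). In 68.3% of single-copy members the summit lay within 50 bp of that of the control peak, and in 3.96% it lay over 200 bp away.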
